A study of Mus musculus with 6 samples.

Results

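The mitochondrial genome of the mouse was examined in RNA-seq libraries of the right hippocampus. Every gene whose symbol begins with mt- and whose listed chromosome is chrM was taken, which gave 37 of the 54752 genes counted. They are 13 protein genes, 2 rRNA genes and 22 tRNA genes, of which 28 lie on the plus strand and 9 on the minus strand, and 16 overlap another gene of the set. All 37 are chosen by name and position and not by any measured value. The libraries came from 3 sham mice and 3 BCAS mice, 1 library per mouse. All were male C57BL/6 mice (C57BL/6 J in the methods) with the genotype WT and a labelled age of 14 weeks. BCAS, bilateral common carotid artery stenosis, was made with a microcoil around each common carotid artery, the narrower coil on the right, and sham mice had the same surgery without coils. The whole right hippocampus was taken 3 weeks after surgery as 1 piece of bulk tissue, so that fewer cells of a type and less RNA per cell cannot be told apart. The labels do not name the litter or cage of the mice. All P values apply to these 6 animals. Those of the gene tests also draw on the spread of other genes at similar levels, and not only on that of the gene itself.

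Mitochondrial DNA is a small circle that most cells hold in many copies. It is transcribed from both strands into long precursors, in which tRNAs stand between most of the other genes and are cut out to release them. Its protein genes all encode subunits of the respiratory chain and the ATP synthase, the machinery that turns reducing power from food into ATP. NADH dehydrogenase (complex I), cytochrome bc1 (complex III), cytochrome c oxidase (complex IV) and ATP synthase (complex V) are each built from mitochondrial and nuclear subunits together, while succinate dehydrogenase (complex II) is nuclear alone. The rRNAs and tRNAs serve the organelle's own ribosomes. Neurons depend on this supply of ATP for firing and synaptic transmission.

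Part of this genome has a nearly identical copy in nuclear DNA, which bears on which reads could be counted. On mm10, the genes annotated on the minus strand of chr1:24611535-24616197, a run of 4663 bases, match chrM:6381-11042, a stretch of 4662 bases that reaches from the end of mt-Co1 into mt-Nd4. Over the 7 pairs of annotated genes 4142 bases were identical and 7 differed. The differences are 6 near the start of Gm29216, the copy of the end of mt-Co1 (T1056A, C1057T, A1059G, A1060G, C1062A and A1066T), and 1 in Gm28438, the copy of mt-Nd3 (T3C), with positions counted from the first base of the mitochondrial gene and the mitochondrial base given first. The 5 other pairs, mt-Co2 with Gm28661, mt-Atp6 with Gm10925, mt-Co3 with Gm28437, mt-Nd4l with Gm10222 and mt-Nd4 with Gm28439, had 0 differences over their aligned bases. The first 60 aligned bases of the pairs that differ are shown 5′ to 3′ from GENCODE vM21 transcripts, for chrM:6381-6440 on the plus strand against chr1:24616138-24616197 on the minus strand, then for chrM:9459-9518 against chr1:24613060-24613119. Capitals mark the bases that differ, and after them the letters run on without a difference.
mt-Co1: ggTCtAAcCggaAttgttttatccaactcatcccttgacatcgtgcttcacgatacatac
Gm29216: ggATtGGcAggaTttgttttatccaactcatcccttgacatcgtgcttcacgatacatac
mt-Nd3: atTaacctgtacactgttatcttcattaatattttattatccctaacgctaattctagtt
Gm28438: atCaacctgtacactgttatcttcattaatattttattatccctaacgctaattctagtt

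The second feature that bears on the counts is overlap between neighbours. The mt-Atp8 gene, a subunit of the ATP synthase, shares its last 43 bases with the start of mt-Atp6, and mt-Nd4l shares its last 7 bases with the start of mt-Nd4. Both shared stretches open with the start codon of the downstream gene. They are shown in capitals below, on the plus strand of mm10 at chrM:7907-7989 and chrM:10147-10193, with the bases on either side in lower case.
mt-Atp8 to mt-Atp6: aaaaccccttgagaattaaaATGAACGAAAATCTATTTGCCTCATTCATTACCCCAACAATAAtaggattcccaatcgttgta
mt-Nd4l to mt-Nd4: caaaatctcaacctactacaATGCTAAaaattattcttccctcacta
According to the headers of the count tables, each mate of a read pair was counted by itself, strand was ignored, and reads that aligned to more than 1 place or lay on more than 1 gene were not counted. Reads were sequenced at 150 bases, and the supplement lists shorter reads as well. Every stretch of 150 bases in each gene was looked up in all other annotated transcripts. The shares of windows thus describe full-length reads inside 1 gene, each taken without its mate. Reads placed with the help of a mate, or matching sequence outside annotated transcripts, are not covered. For mt-Co2, 532 of 535 such windows occurred elsewhere (99.4%), of which 24 were also in Gm13341 on chromosome 2, a gene with 6 to 18 counts per library that was named after its values were seen, and for mt-Atp6, mt-Co3, mt-Nd3 and mt-Nd4l the share was 99.4%, 99.8%, 97% and 98%. It was 59.2% for mt-Nd4 and 23.6% for mt-Co1. The mt-Atp8 gene has 0 shared windows of 55, but it lies inside the copied stretch, and only its last 43 bases, those shared with mt-Atp6, stand opposite an annotated chromosome 1 transcript (Gm10925). No window of mt-Nd1, mt-Nd2, mt-Nd5, mt-Nd6, mt-Cytb, mt-Rnr1 or mt-Rnr2 was found in another transcript. The 6 protein genes that lie wholly inside the stretch (mt-Co2, mt-Atp8, mt-Atp6, mt-Co3, mt-Nd3 and mt-Nd4l) are therefore described apart from the 7 others.

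Levels are given as CPM, the counts of a gene relative to the total of its library after TMM scaling. Library totals ran from 29652456 to 35607098 counts, with all 3 BCAS totals below all 3 sham totals. The RNA carried the markers of hippocampal neurons in all libraries, with 12 of 12 above the limit of detection of 3 counts (0.0874 to 0.0994 CPM) in every one. Summed over that list, the level was 6000 to 6670 CPM in sham mice and 3186 to 4632 CPM in BCAS mice, and 9 of the 12 genes fell, where 13.2% of all tested genes were called lower and 18.0% higher. The 8 microglial markers all rose, from a sum of 309 to 321 CPM to 1826 to 2946 CPM, and the 5 astrocyte markers all rose, from 1358 to 1498 CPM to 5322 to 5829 CPM. Of 4 endothelial markers 3 rose (207 to 226 CPM against 273 to 308 CPM), and of 4 leukocyte markers tested 3 rose, while the sum over all 5 listed was 0.748 to 1.78 CPM in sham mice and 5.54 to 11.1 CPM in BCAS mice. The sums of 5 oligodendrocyte markers (4409 to 5328 CPM against 5054 to 7558 CPM), 6 choroid plexus markers (70.7 to 4112 CPM against 48.2 to 5976 CPM) and 5 red blood cell markers (85.6 to 102 CPM against 106 to 177.4 CPM) held no gene that passed edgeR's test, with 1, 0 and 3 genes at an unadjusted P under 0.05 and 1, 0 and 2 called higher by DESeq2. Over all genes tested 42.4% had an unadjusted P under 0.05 with edgeR. DESeq2 called 3376 genes higher, out of 20823 that had an adjusted P (10.6% of all 31986 genes in its fit). The part of these shifts in cell type in the mitochondrial values was not tested.

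As a share of each library, mitochondrial transcripts were lower in every BCAS mouse than in any sham mouse. The 37 genes took 6.90%, 6.92% and 6.99% of the counts in sham mice 1 to 3 and 6.07%, 6.56% and 6.03% in BCAS mice 1 to 3. The means were 6.94% ± 0.05 (SD, n = 3) and 6.22% ± 0.295 (SD, n = 3). The difference of -0.721 percentage points gave P = 0.1 in the two-sided exact permutation test, the smallest P that 3 mice against 3 can give. Counting error was far smaller than this difference, since the 95% Wilson intervals reached from 6.89% to 6.91% in sham mouse 1 and from 6.55% to 6.57% in BCAS mouse 2, the BCAS mouse with the highest share. These intervals cover counting error only.

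**Figure D1:**
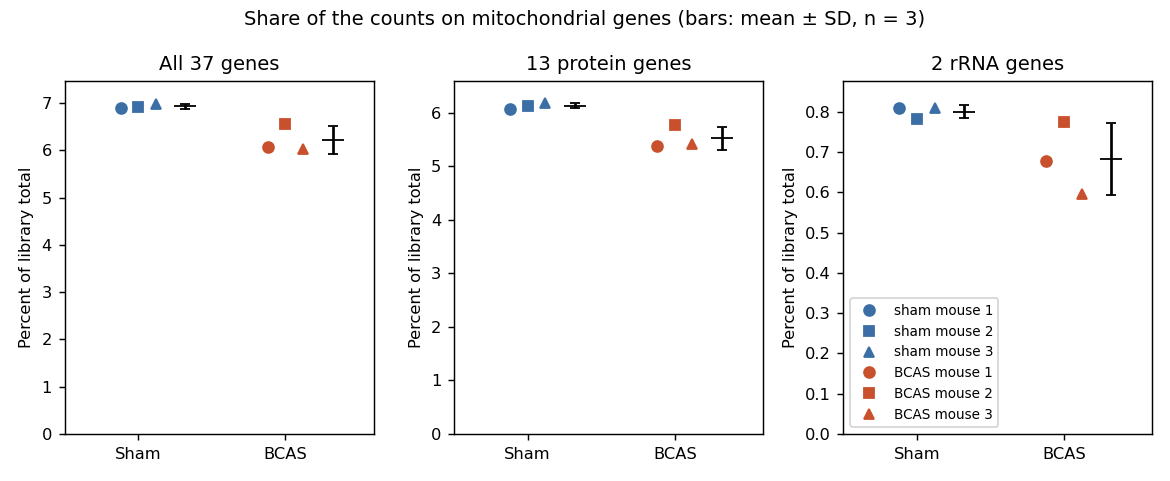
Percent of all counts of a library on the 37 mitochondrial genes (left), the 13 protein genes (middle) and the 2 rRNA genes (right), 1 point per mouse, with the mean and SD of 3 mice as a line and bar beside the points; the y axes start at 0. The sham mice lie close together at 6.90% to 6.99% over all genes, and the BCAS mice lie below them at 6.03% to 6.56% with a wider spread.

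Most of this share came from the protein genes, which held 88.4% ± 0.211 of the mitochondrial counts in sham mice (SD, n = 3). The protein genes took 6.08%, 6.13% and 6.18% of the counts in sham mice and 5.39%, 5.78% and 5.43% in BCAS mice (means 6.13% ± 0.0477 and 5.53% ± 0.216, SD, n = 3, exact permutation P = 0.1). The rRNA genes took 0.809%, 0.783% and 0.810% against 0.678%, 0.775% and 0.596% (means 0.801% ± 0.0153 and 0.683% ± 0.0896, SD, n = 3, exact permutation P = 0.1). Both classes were thus lower in all BCAS mice, and BCAS mouse 2 came closest to sham in both. The tRNA genes held 0.00624% of the counts in sham mice and 0.00502% in BCAS mice, almost all of it on mt-Tp. The 6 protein genes inside the copied stretch held 0.0505% ± 0.0042 of sham counts against 0.0421% ± 0.00686 of BCAS counts (SD, n = 3), and there the groups overlapped. The balance between the classes did not separate the groups. The rRNA genes made up 11.7%, 11.3% and 11.6% of mitochondrial counts in sham mice and 11.2%, 11.8% and 9.88% in BCAS mice (exact permutation P = 0.5).

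The protein and rRNA genes covered a wide range of levels per length. Per kilobase of gene, mt-Co1, the catalytic subunit of complex IV, stood highest with 17210 ± 377 CPM per kilobase in sham mice (SD, n = 3). It was followed by mt-Nd1 (8243 ± 183), mt-Cytb (7690 ± 145), mt-Nd2 (5493 ± 84.9) and mt-Nd4 (4114 ± 150), and the sham mice of neighbours in this order did not overlap. Next came mt-Rnr1 (3514 ± 88.0) and mt-Nd5 (3395 ± 33.1), which met at 3431 CPM per kilobase, then mt-Rnr2 (3075 ± 64.5) and mt-Nd6 (3066 ± 90.3), which overlapped. Far below these lay the genes inside the copied stretch. They ran from 247.5 ± 45.6 CPM per kilobase for mt-Co2, through 211.8 ± 28.5 for mt-Atp6, 191.8 ± 49.8 for mt-Co3, 92.9 ± 7.88 for mt-Nd4l and 69.2 ± 6.77 for mt-Nd3, down to 14.1 ± 2.45 for mt-Atp8. In BCAS mice the gap between the sets was as wide, with 2685 to 15120 CPM per kilobase in the 7 genes outside and 10.9 to 220.6 CPM per kilobase in the 6 inside. Per kilobase of window starts found in no other transcript, a length that leaves out the shared parts of mt-Nd4 and mt-Co1, sham levels were 24940 CPM for mt-Co1 and 11290 CPM for mt-Nd4, which then stood above mt-Nd1 (9764 CPM). The part of the copy and of the counting rules in these levels was not tested.

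**Figure D2:**
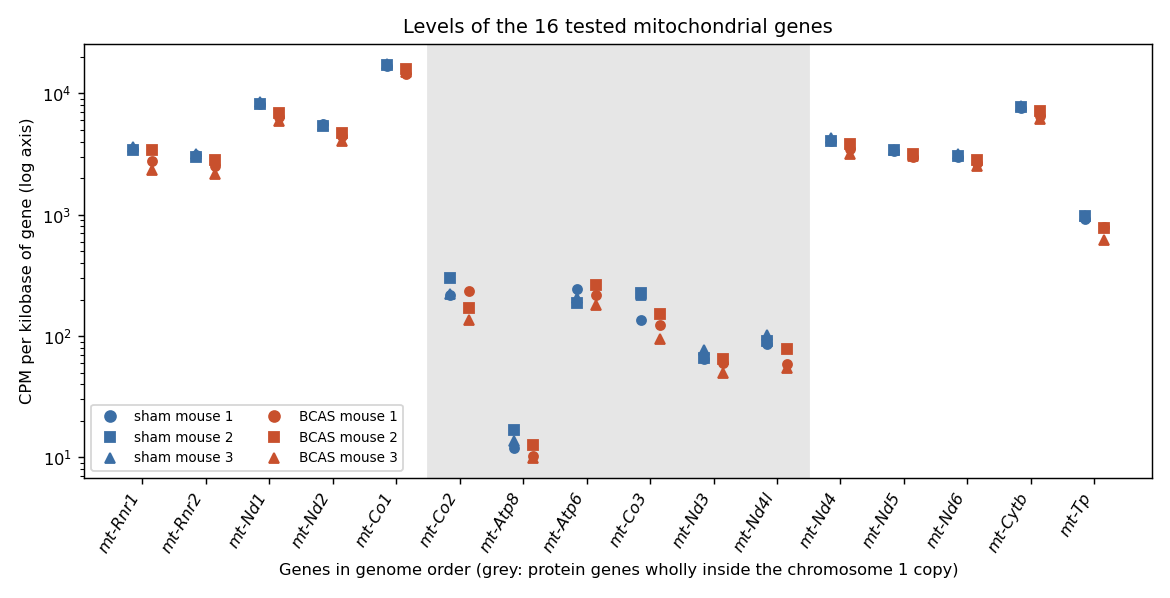
Level of each of the 16 tested mitochondrial genes in CPM per kilobase of gene on a log axis, in genome order, with 1 point per mouse (sham blue, BCAS red, symbols by mouse number) and the 6 genes inside the chromosome 1 copy on grey. The genes on grey lie between about the level of mt-Atp8 (14.1 in sham) and that of mt-Co2 (247.5 in sham), while every protein gene outside it is at or above 2540 in all mice.

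Gene by gene, BCAS was compared with sham by edgeR's quasi-likelihood test with Benjamini-Hochberg adjustment over 18617 genes, and all 37 genes were looked up in it. The filter on low counts kept 16, the 13 protein genes, both rRNA genes and mt-Tp. Of these, 2 fell at an adjusted P under 0.05, mt-Nd4l and mt-Tp, and 0 rose. Over all tested genes 13.2% were lower and 18.0% higher by the same rule, so that 2 of 16 is close to the background. None was a DEG, which also needed an absolute log2 fold change above 1 (9.46% of all tested genes). At an unadjusted P under 0.05 there were 4 of 16, where all tested genes had 42.4%. DESeq2 called 12 lower, where 13.5% of the genes with an adjusted P in its fit were lower. The count of 2 became 0 without sham mouse 2 (7.39% of all genes were lower in that fit) or without sham mouse 3 (6.58%), 1 without BCAS mouse 3 (9.26%) and 4 without BCAS mouse 2 (16.1%). Of the 16 log2 fold changes 15 were below 0, with a median of -0.30 against 0.02 over all genes tested. For 11 of the 16 each BCAS mouse lay below each sham mouse, as was so for 22.7% of all genes tested. Scaling by library totals, which raised the median of all genes from 0.02 to 0.09, brought the log2 fold change of mt-Nd5 from -0.15 to -0.07, that of mt-Co1 from -0.19 to -0.11, that of mt-Nd6 from -0.19 to -0.12 and that of mt-Cytb from -0.22 to -0.14, and moved mt-Atp6 from 0.06 to 0.13.

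Complex I takes 7 of its subunits from mitochondrial DNA, all of them in the membrane arm that pumps protons. The mt-Nd1 level was 7755, 7825 and 8087 CPM in sham mice 1 to 3 and 6146, 6642 and 5680 CPM in BCAS mice 1 to 3, with no overlap. The means of 7889 ± 175.3 and 6156 ± 481 CPM (SD, n = 3) gave a log2 fold change of -0.36 (SE 0.16, edgeR adjusted P = 0.126). For mt-Nd2, 1 of the antiporter-like proton pumps, sham mice had 5796, 5622 and 5687 CPM and BCAS mice 4618, 4920 and 4222 CPM. All BCAS mice were again lower, by a log2 fold change of -0.31 (SE 0.15, edgeR adjusted P = 0.144). The mt-Nd4 gene encodes another pump and had 5554, 5545 and 5906 CPM in sham mice against 4826, 5290 and 4394 CPM in BCAS mice. That is a log2 fold change of -0.23 (SE 0.15, edgeR adjusted P = 0.294), without overlap.

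The largest of the pumps, mt-Nd5, showed the smallest difference of the complex I genes. Its levels of 6139, 6258 and 6178 CPM in sham mice and 5493, 5770 and 5502 CPM in BCAS mice lay close together within each group. The log2 fold change was -0.15 (SE 0.15, edgeR adjusted P = 0.490). The only protein gene on the minus strand, mt-Nd6, had 1546, 1588 and 1639 CPM in sham mice and 1390, 1473 and 1318 CPM in BCAS mice. Its log2 fold change was -0.19 (SE 0.11, edgeR adjusted P = 0.221). The groups did not overlap for either gene. Since strand was ignored in counting, RNA of the opposite strand at mt-Nd6 cannot be told apart from mt-Nd6 itself, and 14 of its bases overlap mt-Nd5.

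Both short complex I genes lie inside the copied stretch. The mt-Nd4l gene, a small membrane subunit, had 25.8, 26.8 and 30.2 CPM in sham mice and 17.4, 23.4 and 16.2 CPM in BCAS mice. It fell, by a log2 fold change of -0.54 (SE 0.15, edgeR adjusted P = 0.0234), to 68.9% of the sham mean. This call rests on 506 to 1038 counts per library from a gene with 98% of its windows shared. It was lost when any 1 of sham mice 1, 2 and 3 or BCAS mice 1 and 3 was left out, with adjusted P from 0.0528 to 0.0896. The mt-Nd3 gene had 22.7, 22.8 and 26.8 CPM against 20.7, 22.7 and 17.2 CPM, so that BCAS mouse 2 was above sham mouse 1. Its log2 fold change was -0.25 (SE 0.13, edgeR adjusted P = 0.171), and -0.15 without BCAS mouse 3.

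Complex III has a single mitochondrial subunit, cytochrome b, which carries the heme groups that pass electrons through the membrane. The mt-Cytb level was 8617, 8831 and 8944 CPM in sham mice and 7427, 8155 and 7088 CPM in BCAS mice. Each BCAS mouse was lower than each sham mouse, with means of 8798 ± 165.9 and 7557 ± 545 CPM (SD, n = 3) and a log2 fold change of -0.22 (SE 0.17, edgeR adjusted P = 0.355).

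Complex IV reduces oxygen at its mitochondrial subunits. The mt-Co1 gene took more counts than any other of the 37, with 25960, 26690 and 27110 CPM in sham mice and 22480, 24620 and 23000 CPM in BCAS mice. The groups did not overlap, the means were 26590 ± 582 and 23360 ± 1116 CPM (SD, n = 3), and the log2 fold change was -0.19 (SE 0.22, edgeR adjusted P = 0.556). The mt-Co2 gene, which takes electrons from cytochrome c, had 149.4, 205.3 and 153.2 CPM in sham mice and 160.2, 115.7 and 93.5 CPM in BCAS mice. BCAS mouse 1 lay above sham mice 1 and 3, and the log2 fold change was -0.46 (SE 0.19, edgeR adjusted P = 0.103). It was -0.70 without BCAS mouse 1 (adjusted P = 0.0135), and -0.30 without sham mouse 2 or without BCAS mouse 3. For mt-Co3, the third core subunit, the values were 105.4, 176.2 and 169.4 CPM against 96.9, 119.3 and 74.2 CPM, with sham mouse 1 below BCAS mouse 2. This was the lowest log2 fold change of the 16, -0.64 (SE 0.21, edgeR adjusted P = 0.0504). It passed the threshold without sham mouse 1 (-0.84, adjusted P = 0.0195) or without BCAS mouse 2 (-0.82, adjusted P = 0.0169), and the adjusted P ran from 0.00156 to 0.166 over all alternatives. Both mt-Co2 and mt-Co3 lie inside the copied stretch, and they had the largest SDs of the sham mice relative to their means together with mt-Atp8.

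Complex V has 2 mitochondrial subunits, both part of the membrane sector through which protons flow. The mt-Atp6 gene was the one member with a log2 fold change above 0, with 165.0, 126.5 and 141.2 CPM in sham mice and 147.2, 181.1 and 122.4 CPM in BCAS mice. The value of 0.06 (SE 0.15, edgeR adjusted P = 0.796) turned to -0.03 without sham mouse 2 and to -0.11 without BCAS mouse 2. The mt-Atp8 gene had only 63 to 114 counts per library, or 2.42, 3.41 and 2.80 CPM in sham mice and 2.09, 2.58 and 2.02 CPM in BCAS mice. The groups overlapped at a log2 fold change of -0.37 (SE 0.23, edgeR adjusted P = 0.265), and the value was -0.23 without sham mouse 2. Reads on the 43 bases that both genes share were counted for neither.

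The rRNA genes encode the small (mt-Rnr1) and large (mt-Rnr2) ribosomal RNA of the organelle. The mt-Rnr1 level was 3347, 3276 and 3444 CPM in sham mice and 2644, 3232 and 2247 CPM in BCAS mice, so that BCAS mouse 2 came close to the lowest sham mouse. Its log2 fold change was -0.31 (SE 0.16, edgeR adjusted P = 0.179), with -0.47 without BCAS mouse 2 (adjusted P = 0.0242) and -0.20 without BCAS mouse 3. The mt-Rnr2 level was 4877, 4757 and 4960 CPM against 4009, 4454 and 3409 CPM, a log2 fold change of -0.30 (SE 0.16, edgeR adjusted P = 0.182). On CPM the groups did not overlap for either gene, but as a percent of the library total mt-Rnr1 did overlap (0.319% to 0.332% in sham mice, 0.237% to 0.326% in BCAS mice). The log2 ratio of mt-Rnr1 to mt-Rnr2 averaged -0.54 for sham and -0.56 for BCAS (exact permutation P = 0.9).

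Of the 22 tRNA genes 20 had 0 counts in every library, and mt-Te had a single count, in sham mouse 2. At the depth of these libraries a count of 0 allows a level of up to 0.0874 to 0.0994 CPM, for counting error only. These genes are 59 to 75 bases long, shorter than a read, and most of them touch another gene or lie a few bases from it. The 1 tRNA gene with more counts was mt-Tp, the tRNA for proline. It touches mt-Tt on 1 side and on the other borders the control region, where no gene is annotated. It held 2112, 2174 and 2227 counts in the sham libraries against 1736, 1561 and 1305 in the BCAS libraries. The part of its position in these counts was not tested. The 3 tRNAs are shown 5′ to 3′ from GENCODE vM21, mt-Tp at chrM:15356-15422 and mt-Te at chrM:14071-14139 on the minus strand and mt-Tf, which begins the numbering at chrM:1-68, on the plus strand. They are shown because mt-Tp and mt-Tf border the control region from either side and are nearly equal in length, and only mt-Tp was counted, while mt-Te is the one other tRNA gene with a count.
mt-Tp: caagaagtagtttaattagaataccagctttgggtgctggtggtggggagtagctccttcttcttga
mt-Tf: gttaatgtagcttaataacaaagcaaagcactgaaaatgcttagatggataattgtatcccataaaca
mt-Te: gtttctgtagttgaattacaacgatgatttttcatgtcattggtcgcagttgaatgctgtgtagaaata
In CPM, mt-Tp was at 62.3, 65.0 and 64.9 in sham mice and 53.4, 51.7 and 41.8 in BCAS mice, with no overlap. It fell, by a log2 fold change of -0.39 (SE 0.10, edgeR adjusted P = 0.0171), and the call was lost without sham mouse 2 (adjusted P = 0.0598) or sham mouse 3 (adjusted P = 0.0624). Since strand was ignored in counting, RNA of the opposite strand at mt-Tp cannot be told apart from mt-Tp itself, and which RNA gave these counts was not tested.

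**Figure D3:**
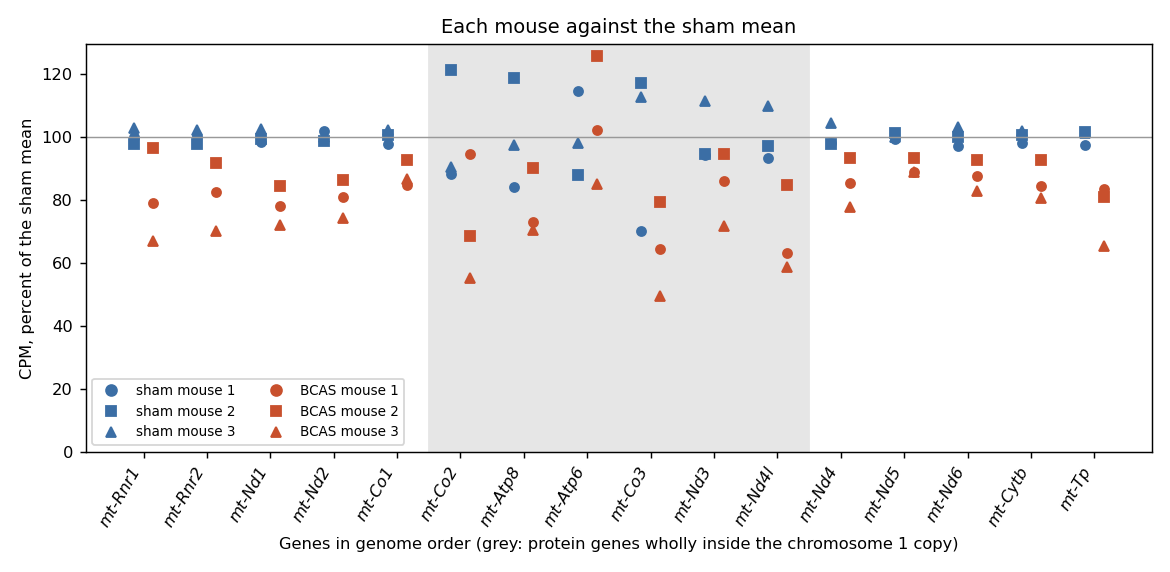
Level of the 16 tested genes in each mouse as a percent of the mean of the 3 sham mice, in genome order, with the 6 genes inside the chromosome 1 copy on grey and a line at 100. Outside the grey the sham mice lie within a few percent of the line and the BCAS mice below them, and on grey the sham mice scatter more widely and overlap the BCAS mice in 5 of 6 genes.

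The same mouse was low for most of the genome. In CPM, BCAS mouse 3 was lowest of all 6 for 14 of the 16 genes, and BCAS mouse 1 for the 2 others, mt-Co1 and mt-Nd5. BCAS mouse 2 was highest of the BCAS mice for 14 genes, and BCAS mouse 1 for mt-Co2 and mt-Tp. The neuronal marker sum had the same order, with 3186 CPM in BCAS mouse 3, 4211 CPM in BCAS mouse 1 and 4632 CPM in BCAS mouse 2, and microglial markers summed to 2946 CPM in BCAS mouse 3 against 1826 CPM and 1955 CPM in the others. With 3 mice this is a description, and its part in the mitochondrial values was not tested.

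How many members passed the threshold depended on the tool, while the fold changes from the 3 tools were close. DESeq2 called 12 of the 16 lower at an adjusted P under 0.05, all but mt-Atp6, mt-Atp8, mt-Nd3 and mt-Nd5. In its fit 13.5% of the genes with an adjusted P were lower. The limma-voom fit called 4 lower, mt-Nd1, mt-Nd2, mt-Nd4l and mt-Tp, against 13.5% of all genes. The log2 fold change of mt-Nd1 was -0.36 with edgeR, -0.36 with limma-voom and -0.38 with DESeq2, but its SE was 0.16, 0.10 and 0.09. For mt-Co1 the SE was 0.22 with edgeR, 0.10 with limma-voom and 0.08 with DESeq2, and 0.04 when computed from the log2 CPM of the 6 mice alone. All 3 tools called mt-Nd4l (DESeq2 adjusted P = 0.0031, limma-voom adjusted P = 0.0167) and mt-Tp (DESeq2 adjusted P = 0.00315, limma-voom adjusted P = 0.0172). None of the 3 called a member higher.

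**Figure D4:**
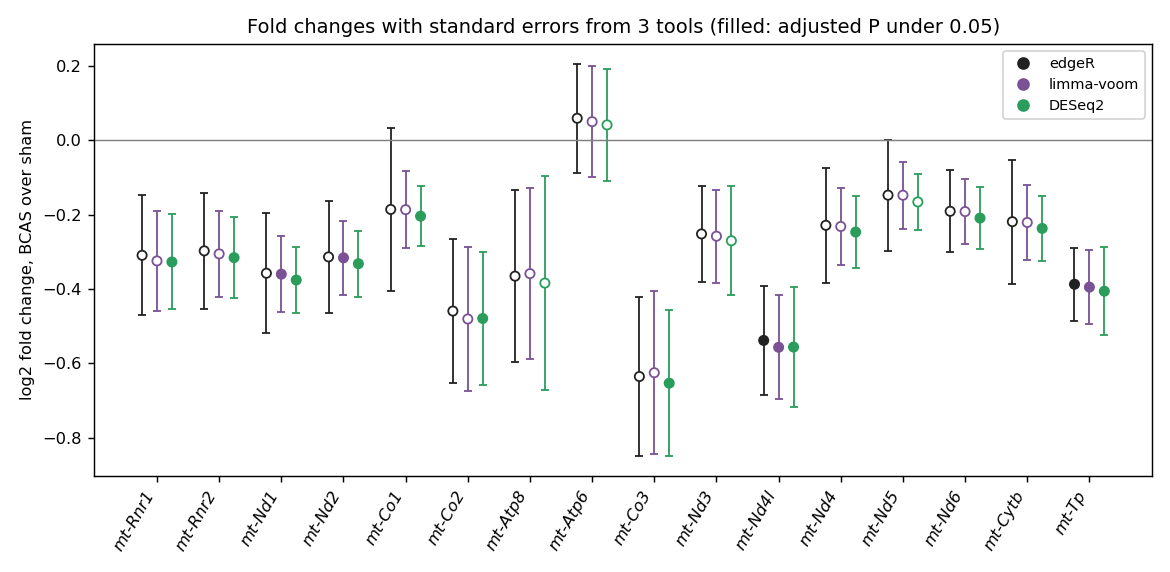
log2 fold change of BCAS over sham with its SE for the 16 tested genes from edgeR (black), limma-voom (purple) and DESeq2 (green), filled where the adjusted P was under 0.05. The 3 estimates of each gene lie side by side at nearly 1 height, the bars of edgeR are longer for the genes with many counts such as mt-Co1, and 2, 4 and 12 symbols are filled.

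Among the mitochondrial protein genes, 5 of 13 shares did not overlap between the groups, and none passed the threshold after adjustment. No such count was made for genes outside this set. The shares of a mouse add up to a whole, so a higher share of mt-Co1 lowers those of the others, and the 13 are not independent. As a share of the protein gene counts of a mouse, mt-Co1 was 42.0%, 42.4% and 42.3% in sham mice and 42.6%, 42.9% and 44.6% in BCAS mice, and mt-Nd5 was 9.93%, 9.95% and 9.64% against 10.4%, 10.1% and 10.7%. Both were higher in every BCAS mouse. The difference of 1.14 points for mt-Co1 was 0.51 points without BCAS mouse 3. Lower in every BCAS mouse were mt-Nd1, with means of 12.5% ± 0.0936 and 11.4% ± 0.34 (SD, n = 3), mt-Nd2, with means of 9.06% ± 0.272 and 8.51% ± 0.282 (SD, n = 3), and mt-Nd4l, with means of 0.0438% ± 0.00296 and 0.0351% ± 0.005 (SD, n = 3). Each of these 5 gave an exact permutation P = 0.1, the smallest possible, and 0.26 after adjustment over the 13 shares tested. For the 8 other genes the groups overlapped, and mt-Cytb was 14.0% in both groups (exact permutation P = 0.8). Directly compared, the log2 ratio of mt-Nd1 to mt-Nd5 was 0.34, 0.32 and 0.39 in sham mice and 0.16, 0.20 and 0.05 in BCAS mice (difference -0.21, exact permutation P = 0.1, 0.4 after adjustment over 16 ratios). The ratios were chosen after the values of the genes were seen. The ratio of mt-Nd6 to mt-Cytb, on opposite strands, averaged -2.47 for sham and -2.44 for BCAS on the log2 scale and overlapped between the groups (difference 0.03, exact permutation P = 0.2).

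The annotated genes of the chromosome 1 copy carried counts of their own. Against mt-Atp6, Gm10925 had 81.2%, 90.4% and 85.1% as many counts in sham mice and 65.9%, 69.1% and 79.1% in BCAS mice, lower in every BCAS mouse (exact permutation P = 0.1, and 0.4 after adjustment as a log2 ratio over the 16 ratios). Gm28661 had 48.5% ± 6.81 of the counts of mt-Co2 in sham mice and 46.0% ± 7.78 in BCAS mice, Gm28438 12.9% ± 2.55 and 13.4% ± 0.571 of those of mt-Nd3, and Gm10222 45.6% ± 6.94 and 52.5% ± 5.86 of those of mt-Nd4l (SD, n = 3), with overlap in each. Gm28437 was uneven between mice of both groups, at 45.9%, 45.8% and 110.1% of mt-Co3 in sham mice and 46.7%, 34.6% and 118.4% in BCAS mice. In BCAS mouse 1 Gm29216 had 2005 counts, against 686 to 1229 in the 5 other mice, and Gm28439 had 1099 to 1758 counts per library. Of the 6 copy genes other than Gm10222, 0 passed edgeR's test (adjusted P from 0.0682 to 0.816) or limma-voom's and 1 passed DESeq2's, and 1 had an unadjusted P under 0.05, Gm28661 (over all genes tested 13.2% were lower with edgeR, 13.5% with DESeq2 and with limma-voom, and 42.4% had an unadjusted P under 0.05), and the median log2 fold change was -0.20. Summed, these 6 took 0.0322%, 0.0376% and 0.0449% of the library total in sham mice and 0.0308%, 0.0298% and 0.0320% in BCAS mice. That sum was lower in every BCAS mouse (exact permutation P = 0.1). Gm10222, which was added after its shared windows were found, had a log2 fold change of -0.32 (SE 0.17, edgeR adjusted P = 0.177). Reads with identical sequence in both places cannot be assigned to either by their own sequence. The values of the 6 genes inside the stretch and of their copies are therefore uncertain as levels of 1 gene.

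The nuclear subunits of the same complexes were read from the same edgeR fit. Of 77 nuclear subunits of complexes I to V 33 fell and 0 rose, with a median log2 fold change of -0.27 (13.2% of all genes tested were lower, median 0.02). DESeq2 and limma-voom also called 0 higher, and 50 of the 77 had an unadjusted P under 0.05 with edgeR, where all tested genes had 42.4%. Leaving out sham mouse 2 brought the count to 7 of 77 (7.39% of all genes were lower in that fit), leaving out sham mouse 3 to 5 (6.58%) and leaving out BCAS mouse 3 to 17 (9.26%). It was 18 with library totals (9.61%) and 14 with the replicate number as a block (9.4%). Among 36 of complex I, 18 fell, led by Ndufv2 and Ndufs1, which carry electrons in the matrix arm, and by the accessory subunits Ndufa5 and Ndufa10. Ndufv2 had 116.4, 116.1 and 126.9 CPM in sham mice and 88.3, 87.3 and 87.6 CPM in BCAS mice (log2 fold change -0.45, SE 0.07, edgeR adjusted P = 0.00155). Ndufs1 went from 135.1 ± 3.26 to 107.3 ± 2.19 CPM (SD, n = 3), a log2 fold change of -0.33 (SE 0.06, edgeR adjusted P = 0.00523). Of 4 complex II subunits, which have no mitochondrial partner, 1 fell, the iron-sulfur subunit Sdhb (log2 fold change -0.29, SE 0.08, edgeR adjusted P = 0.027). In complex III 4 of 9 fell, Uqcrc2, Uqcrfs1, Uqcr10 and Cyc1, with log2 fold changes of -0.33, -0.31, -0.30 and -0.31. In complex IV 5 of 11 fell, with Ndufa4 at -0.44, Cox5a at -0.36, Cox5b at -0.35 and Cox7c at -0.32 among them. In complex V 5 of 17 fell, and Atp5f1, of the stalk that holds the enzyme's head, went from 256.7 ± 14.6 to 189.6 ± 11.1 CPM (SD, n = 3; log2 fold change -0.44, SE 0.08, edgeR adjusted P = 0.00416).

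The ratios of mitochondrial to nuclear subunits overlapped between the groups in complexes I, III and IV. In complex I the mitochondrial counts were those of mt-Nd1, mt-Nd2, mt-Nd4, mt-Nd5 and mt-Nd6, without mt-Nd3 and mt-Nd4l, which lie inside the copied stretch. Their log2 ratio to the nuclear counts was 3.67, 3.57 and 3.50 in sham mice and 3.57, 3.64 and 3.58 in BCAS mice (difference 0.01, exact permutation P = 0.9). That of mt-Cytb to nuclear complex III was 3.13 ± 0.10 and 3.16 ± 0.05 (SD, n = 3, exact permutation P = 0.7), and that of mt-Co1 to nuclear complex IV 3.95 ± 0.11 and 4.04 ± 0.12 (SD, n = 3, exact permutation P = 0.5). The median log2 fold change of the nuclear subunits was -0.27 in complex I, -0.20 in II, -0.21 in III, -0.32 in IV and -0.27 in V, beside -0.22 for the 7 mitochondrial protein genes outside the copied stretch. Against the neuronal markers the groups did not overlap. The log2 ratio of mitochondrial protein genes to the summed neuronal markers was 3.37, 3.31 and 3.26 in sham mice and 3.65, 3.63 and 4.02 in BCAS mice, higher in every BCAS mouse (difference 0.45, exact permutation P = 0.1, 0.4 after adjustment over the 16 ratios). Most of that marker sum came from Snap25, Syt1 and Nrgn, with sham means of 2144, 1794 and 1136 CPM. Of the other markers, Wfs1, Prox1 and C1ql2 overlapped between the groups, at log2 fold changes of -0.30, -0.14 and -0.06.

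**Figure D5:**
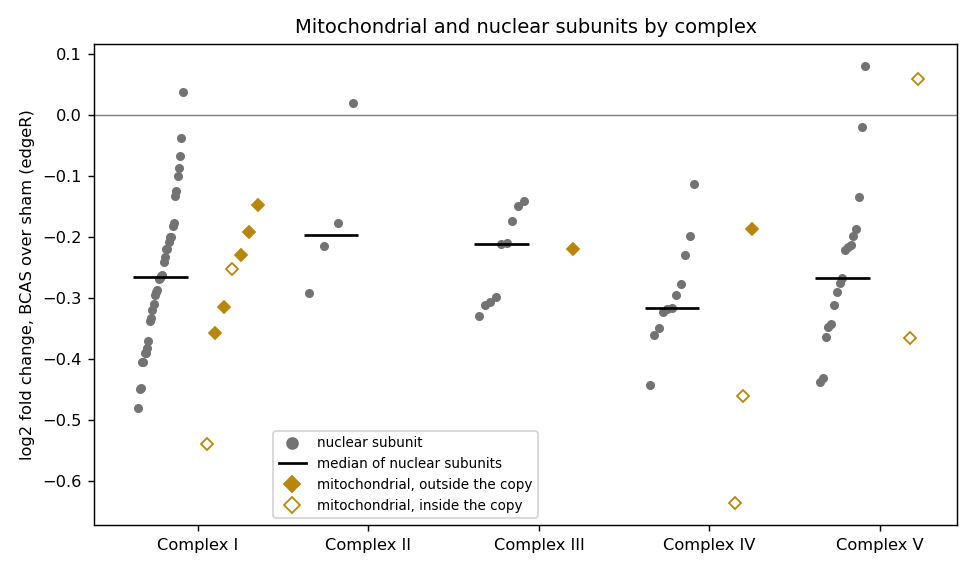
log2 fold change of BCAS over sham (edgeR) for the nuclear subunits of each complex (grey points, with their median as a black line) and for the mitochondrial subunits (diamonds, filled outside and open inside the chromosome 1 copy). The filled diamonds, from -0.36 for mt-Nd1 to -0.15 for mt-Nd5, lie within the range of the nuclear subunits of their complex, and the open ones spread from -0.64 for mt-Co3 to 0.06 for mt-Atp6.

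The nuclear genes that transcribe, copy and process mitochondrial DNA were read in the same way, against 13.2% lower and 18.0% higher over all genes tested. Of 9 genes of mitochondrial transcription 1 fell, Mterf2, a factor of the family that binds and regulates mitochondrial DNA, from 7.91 ± 0.363 to 5.47 ± 0.762 CPM (SD, n = 3; log2 fold change -0.53, SE 0.15, edgeR adjusted P = 0.0295). The transcription factor Tfb2m had a log2 fold change of -0.22 (SE 0.09, edgeR adjusted P = 0.0995), Mterf4 of -0.28 (SE 0.12, edgeR adjusted P = 0.108) and the RNA polymerase Polrmt of 0.19 (SE 0.11, edgeR adjusted P = 0.238). Among 13 genes of replication and upkeep 1 rose and 1 fell. Primpol, which primes DNA synthesis past damage in nucleus and mitochondria, had 3.83, 2.93 and 3.23 CPM in sham mice and 6.83, 5.73 and 6.05 CPM in BCAS mice (log2 fold change 0.90, SE 0.18, edgeR adjusted P = 0.00596). The nuclease Exog was at 28.0 ± 1.3 CPM in sham mice and 22.3 ± 1.93 CPM in BCAS mice (SD, n = 3; log2 fold change -0.33, SE 0.10, edgeR adjusted P = 0.0355).

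Of 19 tested genes of mitochondrial RNA processing and stability 1 fell, Grsf1, which binds G-rich RNA in the granules where precursors are processed (log2 fold change -0.23, SE 0.07, edgeR adjusted P = 0.0382). Lrpprc, which keeps mitochondrial messenger RNAs stable, had 80.3, 81.1 and 84.6 CPM in sham mice and 76.3, 69.6 and 68.5 CPM in BCAS mice, with no overlap (log2 fold change -0.20, SE 0.07, edgeR adjusted P = 0.064). The list's median was -0.11. Of 7 regulators of mitochondrial biogenesis 2 rose, the coactivator Pprc1 (log2 fold change 0.38, SE 0.11, edgeR adjusted P = 0.034) and Gabpa, a subunit of nuclear respiratory factor GABP (log2 fold change 0.36, SE 0.11, edgeR adjusted P = 0.0366). The coactivator Ppargc1a and its partner Esrra did not pass, at -0.21 (SE 0.07, edgeR adjusted P = 0.0609) and -0.18 (SE 0.07, edgeR adjusted P = 0.0809). Over the 4 lists 3 genes fell and 3 rose, beside 13.2% and 18.0% of all genes tested. Without sham mouse 1, 2 or 3 or BCAS mouse 3 the count that fell was 0, where 7.61%, 7.39%, 6.58% and 9.26% of all genes were called lower. It was also 0 with the replicate number as a block (9.4%), and it was 1 without BCAS mouse 1 (10%) or with library totals (9.61%) and 4 without BCAS mouse 2 (16.1%). The block left 1 that rose (14.9% of all genes were higher), and without sham mouse 2, sham mouse 3 or BCAS mouse 3 the count that rose was 1 (13.7%, 13.2% and 13.5%).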

How the data were processed

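RNA-seq counts of 6 libraries, grouped by their labels, were used. The authors used Trim Galore, HISAT2 on mm10 and featureCounts, and deposited raw counts per gene with no normalization. The file headers name featureCounts 2.0.3 and GENCODE vM20, while the methods name version 1.6.3 and RefSeq genes, and the headers were followed. Of 54752 gene IDs 54723 were matched to a symbol. Windows and sequences came from GENCODE vM21 transcripts on the same build. Levels are CPM after TMM scaling (factors 0.964 to 1.053). Genes were kept by filterByExpr and tested in R 4.3.3 with edgeR 4.0.16, with limma 3.58.1 and DESeq2 1.42.0 as alternatives, and the steps were tested on simulated data. Shares and ratios were compared by two-sided exact permutation tests. The limit of detection was set at 3 counts in a library. Members, lists and tests were chosen with earlier results of these data known. Named were all protein and rRNA genes, tRNA genes that passed the filter (others by counts), up to 4 genes of smallest P in each nuclear list and chromosome 1 copy genes with 10 or more counts in a library. No 2 libraries were duplicates (chi-square of 13 to 44.5 per gene between libraries of a group). Other alternatives were RLE factors, library totals, scaling without mitochondrial counts, other filters, thinned or halved counts (halving was chosen after seeing the data), a replicate block and leaving out each mouse.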

Additional observations from a re-analysis of the deposited data

How the results depend on the processing

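The number of mitochondrial genes called lower was 2 in edgeR's test, 12 with DESeq2 (13.5% of genes with an adjusted P lower), 4 with limma-voom (13.5% of all genes) and 4 with all genes of at least 1 count (7.94% of all genes lower), and 0 to 4 when a mouse was left out, where 6.58% to 16.1% of all genes were lower (0 without sham mouse 2 or 3, 1 without BCAS mouse 3, 4 without BCAS mouse 2). It was 0 higher in all 16 alternatives. The fold change of mt-Atp6 was -0.0298 without sham mouse 2 and -0.107 without BCAS mouse 2, and up to 0.18 with another mouse left out. Library totals moved the median of all genes from 0.02 to 0.09. Nuclear subunits called lower went from 33 to 18 with library totals (9.61% of all genes lower) and 5 (6.58%, without sham mouse 3) to 40 (16.1%, without BCAS mouse 2) with a mouse left out. Of the genes of mitochondrial DNA and RNA upkeep, those called lower went from 3 to 1 with library totals (9.61% of all genes lower). With a mouse left out they were 0 to 4 (6.58% to 16.1%). Those called higher went from 3 to 1 or 2 with a mouse left out (12.9% to 18.6% of all genes higher). In the shares of protein gene counts, which had differed by less than the spread between mice for these genes, mt-Nd4 turned to 0.0148 points with all mitochondrial genes as denominator and 0.0294 per kilobase, and ranged from -0.172 to 0.177 with a mouse left out, mt-Nd3 from -0.00191 to 0.00119 and mt-Cytb from -0.068 to 0.167. The cause was not tested. The difference in library share stayed between -1.06 and -0.602 points under its 10 alternatives. Residual correlations between sham and BCAS mice of the same replicate number were 0.036, -0.314 and -0.158. These 3 values cannot show whether replicate numbers mark mice handled together. With the replicate block, 9.4% of all genes were called lower and 14.9% higher. In that fit 2 mitochondrial genes were called lower, mt-Nd4l (adjusted P = 0.044) and mt-Tp (adjusted P = 0.0347). The same fit called 14 nuclear subunits lower, and 0 upkeep genes lower and 1 higher. What depth and shared sequence contribute to the low counts of mt-Atp8 and the tRNA genes was not tested.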
